A study of Rattus norvegicus with 4 samples.

Results

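The response to serum of Rat1-control cells was read from a pair of Affymetrix rat genome arrays, which are 2 of the 4 arrays of the study. Rat1 is an immortalized line of rat fibroblasts, and Rat1-control cells carry an empty retrovirus by stable infection. Cells of both groups were starved for 48 h in 0.1% serum, and the RNA was taken either at the moment of serum re-addition (0 min) or 90 min after the change to 10% serum. All of them, the controls included, had also been given 4-OHT, the active form of tamoxifen, which is there to switch on Omomer in the other cell line of the study. By the sample labels 4-OHT was present all through starvation, and by the methods it was added 4 h before serum. The other cell line, Rat1-Omomer, makes Omomyc (a dominant negative Myc) fused to the tamoxifen-inducible estrogen receptor ERTM from a retrovirus, and it is used below only for comparison, at the same 2 times. Samples were assigned by their titles, which the transfection labels contradict for 2 of the 4 samples: the Rat1-control sample at 90 min is labelled Omomyc, and the Rat1-Omomer sample at 0 min control vector. The probe set of the estrogen receptor Esr1, part of which is in Omomer, had -927 in the library titled Rat1-control at 0 min and 3325 in that at 90 min, and 4711 and 3334 in those titled Rat1-Omomer. The value of the Rat1-control library at 90 min thus goes with its transfection label and against its title, and that of the Rat1-Omomer library at 0 min goes with its title and against its label. Whether this probe set detects the fusion was not tested. Rat1-control at 90 min means the library of that title throughout, and if its label were right, every fold below would hold a difference between the lines as well, which cannot be told apart from that of serum. Of the 8799 probe sets of the array, the 59 control probe sets of the manufacturer were set aside, and all other 8740 are described. Each condition was measured on 1 array, so that no difference could be set against the spread between cultures: every fold below describes these arrays, and no test was possible.

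Serum brings quiescent fibroblasts back to the cell cycle and starts a program that resembles wound healing. Growth factors in serum act through receptor tyrosine kinases, Ras and MAP kinases, and serum also changes the state of the actin cytoskeleton. Both routes converge on serum response factor, which binds CArG boxes with either ternary complex factors or actin-sensing coactivators as partners. Immediate early genes such as Fos, Jun and Egr1 are transcribed within minutes and are soon shut off again, whereas feedback inhibitors, secreted factors, cytoskeletal genes and Myc targets follow over the next hours. Genes of the quiescent state, many of them driven by FoxO factors, are turned off at the same time.

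At 90 min genes of the contractile cytoskeleton, secreted growth factors and amino acid, nucleotide and chaperone genes were mostly higher than at 0 min, feedback inhibitors went both ways, and AP-1 subunits, growth arrest genes and genes of replication and mitosis were lower. Values are average differences, the brightness of perfect match probes over mismatch probes on a linear scale, which can be negative. Values under a floor of 1048, set at 2 times the noise SD of 524, were taken as the floor, so that a fold against such a value is a lower bound, written "at least". A probe set under the floor on both arrays has no fold. Of the 8740 probe sets, 3985 were above the floor on at least 1 of the 2 arrays (3248 on both, 490 at 0 min only and 247 at 90 min only) and 4755 were not. Of these 3985, 77 (1.93%) were 3-fold or more higher at 90 min and 72 (1.81%) 3-fold or more lower, with 29 and 30 of them given as bounds. They measured 54 and 52 genes with 1 symbol each. At 2-fold there were 217 higher and 288 lower, at 5-fold 29 and 18, and at 10-fold 10 and 1. The tail above 0 was thus the longer one, although the median log2 fold was -0.07 and the 10th and 90th percentiles were -0.84 and 0.67. Close to the threshold, Lrrc59 and Pxn were just inside it at 3.01-fold, whereas Ptgs2 (2.95-fold) and B4galt6 (2.98-fold) were just outside it. Among the lower ones, Medag (3.01-fold) was inside and Nr2f1 (2.99-fold) outside.

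**Figure D1:**
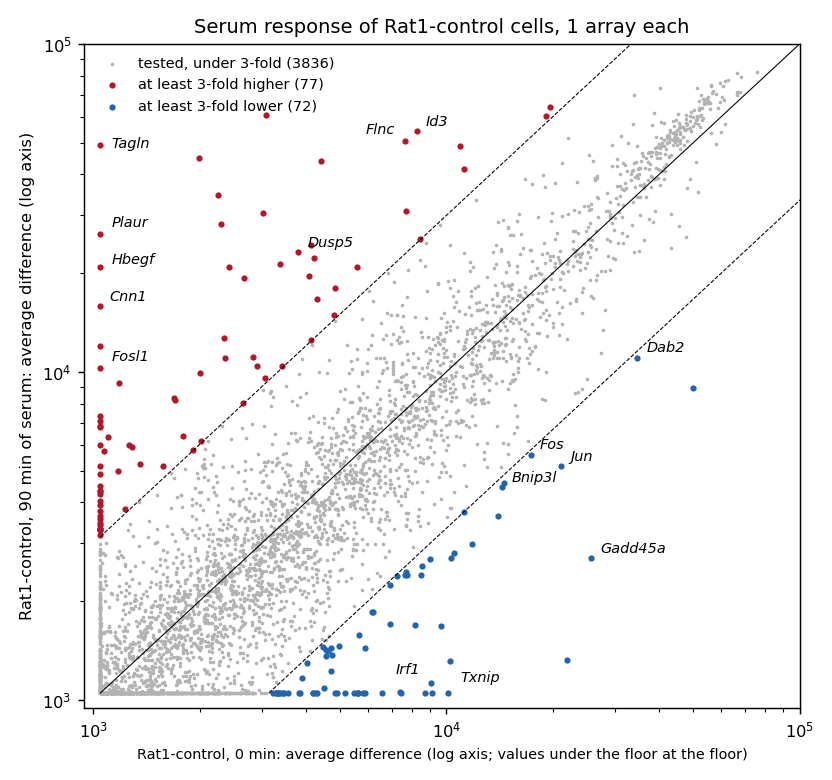
Average difference of the 3985 probe sets above the floor on at least 1 array, at 0 min (x axis) and 90 min (y axis) in Rat1-control cells, both axes log, with values under the floor drawn at the floor of 1048. Red points (77) are 3-fold or more higher and blue points (72) 3-fold or more lower at 90 min, the solid line marks equal values and the dashed lines 3-fold, and named genes are at 1 of their probe sets; several of the highest folds start from the floor at 0 min.

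Control probe sets of the manufacturer differed in part between both arrays. That of 5S rRNA was lower at 90 min, from 7425 to 1188, and what this means for the other values was not tested. The 3' over 5' signal ratios of actin and GAPDH control probe sets were between 1.02 and 1.20 on both, GAPDH was 1.21-fold to 1.22-fold higher at 90 min, and between 24.8% and 26.2% of the values were negative. Of 17 fibroblast marker genes on the array, 14 were above the floor on each array (Col1a1, Col3a1, Fn1, Thy1 and Vim among them), with a summed level of 523466 at 0 min and 613527 at 90 min. Postn, Ddr2 and Pdgfra were among the 14. Of the markers of other cells, at most 2 of 9 epithelial, 2 of 6 endothelial, 3 of 11 blood, 4 of 13 neural, 5 of 16 striated muscle and 3 of 11 hepatocyte genes were above the floor on either array. None changed 3-fold by a probe set with 1 symbol. A probe set shared by the myosins Myh1, Myh2 and Myh8, which is not in the marker lists, went from 3371 to 21385 (6.34-fold higher). In RNA of whole cultures, fewer cells of a kind and less RNA per cell cannot be told apart. For 492 genes with several probe sets that passed the floor at both times, the SD of log2 folds within a gene was 0.32. Of the 54 higher genes, 31 had more than 1 probe set with a fold, and in 27 of these all had the same direction. The exceptions were Anp32a, Hk2, Id1 and Nr4a3. Of the 52 lower genes, 25 had more than 1, and all but Ssb had the same direction in all. The fold also went with the signal level: the median log2 fold was between -0.16 and 0.03 for probe sets below 32000 and 0.25 for the 230 above it, and whether this is a property of the arrays or of the RNA was not tested.

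**Figure D2:**
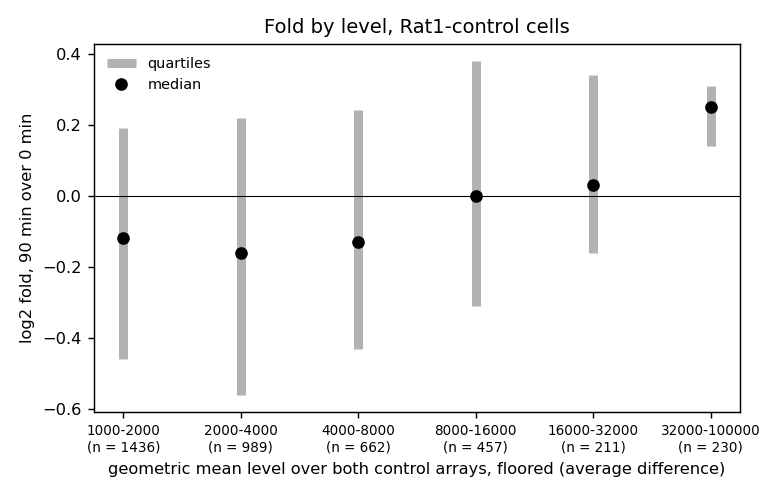
Median (points) and quartiles (bars) of the log2 fold at 90 min over 0 min in Rat1-control cells, for probe sets grouped by the geometric mean of their floored values on both arrays. The 230 brightest probe sets had a median of 0.25 with quartiles of 0.14 and 0.31, while the groups from 1000 to 32000 had medians from -0.16 to 0.03.

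The AP-1 subunits were mostly lower at 90 min. AP-1 is a dimer of Fos and Jun proteins. Fos had a value of 17317 at 0 min and 5588 at 90 min by the brightest probe set (3.10-fold lower), and was 7.85-fold and at least 8.30-fold lower by both others. Jun went from 21117 to 5155, which is 4.10-fold lower, and its other probe sets above 3-fold were 3.40-fold and at least 4.92-fold lower. Junb, from 27669 to 13416, was 2.06-fold lower. The Fos family member Fosl1 (Fra-1), known as a delayed target of MAP kinase signalling, was the exception, with -178 at 0 min and 11973 at 90 min (at least 11.4-fold higher). Of the 13 probe sets with a fold, 1 was 3-fold or more higher and 6 3-fold or more lower, all of Fos or Jun, and the median was -1.04. With 1 probe set for each gene the median was -0.35, since Fos and Jun have most of the probe sets. Batf3, Fosl2 and Jund were under the floor. Fos, Jun and Junb were thus above the floor in starved cells, and lower after 90 min of serum.

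Other immediate early transcription factors went both ways, and several of the best known had the same level at both times. Egr1, a zinc finger activator, had 66526 at 0 min and 71472 at 90 min, and its other 3 probe sets were between 1.09-fold and 1.55-fold lower. The nuclear receptor Nr4a1 had 16461 and 15137 (1.09-fold lower). Egr2 was 1.98-fold lower, from 3145 to 1589. In contrast, Nr4a3 was under the floor at 0 min (289) and had 6790 at 90 min, at least 6.48-fold higher, although a second probe set was at least 1.89-fold lower. Ifrd1 was 4.79-fold higher, from 1709 to 8193, and the Ets family activator Ets1 at least 4.12-fold higher, from 940 to 4317. Ier3, an early response gene of cell survival, was 2.66-fold and 3.81-fold lower by both of its probe sets. Maf was lower by 2.73-fold, and Hes1, a repressor downstream of Notch, by 2.14-fold. Counting Myc, 4 of 46 probe sets were 3-fold or more higher (Ets1, Ifrd1, Myc and Nr4a3) and 1 was 3-fold or more lower (Ier3), with a median of -0.08, which is 0.03 after median scaling. For 6 of the genes, Crem and Egr3 among them, no probe set was above the floor.

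**Figure D3:**
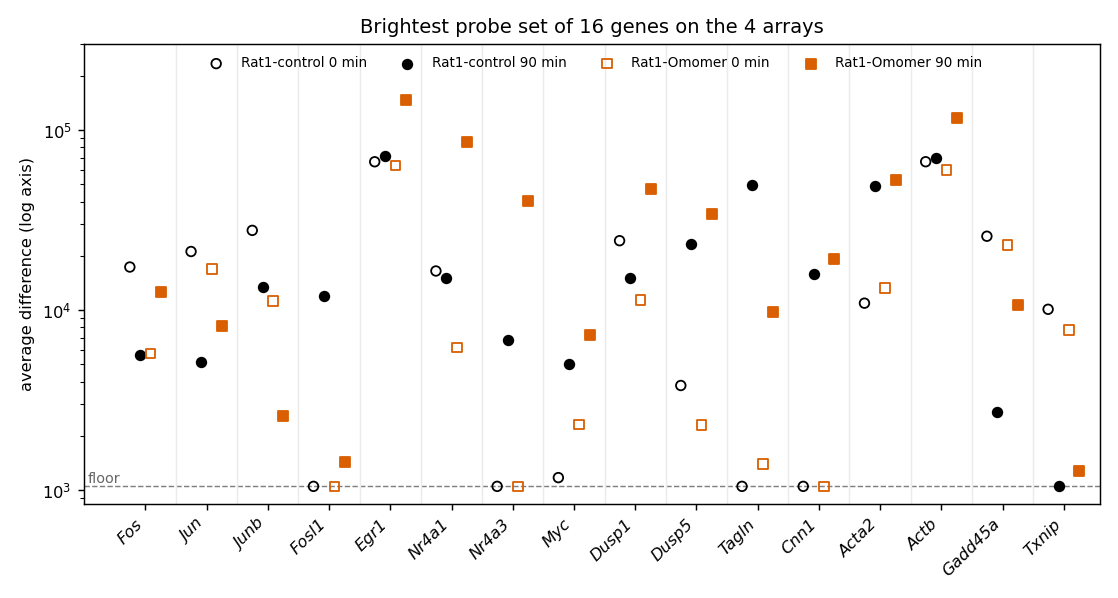
Average difference (log axis) of the brightest probe set of 16 genes on the 4 arrays, with Rat1-control cells as circles and Rat1-Omomer cells as squares, open at 0 min and filled at 90 min, and 1 array per symbol. Values under the floor (dashed line, 1048) are drawn at the floor. In Rat1-control cells Fos, Jun, Junb, Gadd45a and Txnip were lower at 90 min, Egr1 and Nr4a1 were nearly level, and Fosl1, Nr4a3, Tagln and Cnn1 started from the floor. Levels of different genes cannot be compared, since each probe set has its own brightness.

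Since serum response factor acts on many of these genes, the promoter windows of RefSeq (GRCr8, 250 bases before to 50 after each start) were searched for the CArG box on both strands. Of 27457 genes with a window, 1.77% held one and 10.08% held one with up to 1 other letter in its A/T core. Among the 2065 matched genes with a fold on these arrays the shares were 1.69% and 9.69%. Of the 46 matched genes among the 54 3-fold or more higher, 3 held an exact box (Dusp5, Fhl2 and Myo1e) and 7 a box with up to 1 other letter. Of the 39 matched genes among the 52 3-fold or more lower, 1 (Svil) and 2 did. In the list of contractile fibre genes 4 of 20 matched genes held an exact box (Acta1, Actc1, Actg1 and Fhl2), but Actg1 was 1.17-fold lower and Acta1 and Actc1 were under the floor. Among immediate early factors Egr1, Egr2 and Klf6 held one. The windows below are those of genes whose values bear on this: 4 that were 3-fold or more higher, of which Acta2 has 2 boxes with 1 other letter, at positions -134 and -84 from the start, and Dusp5 has 2 exact boxes next to each other, and Egr2, which holds an exact box at -83 and was 1.98-fold lower. The window of Cnn1, which was at least 15.1-fold higher, held neither form and is not printed. Capitals mark the boxes, exact or with 1 other letter in the core.
Acta2, chr1:241172454-241172753, minus strand: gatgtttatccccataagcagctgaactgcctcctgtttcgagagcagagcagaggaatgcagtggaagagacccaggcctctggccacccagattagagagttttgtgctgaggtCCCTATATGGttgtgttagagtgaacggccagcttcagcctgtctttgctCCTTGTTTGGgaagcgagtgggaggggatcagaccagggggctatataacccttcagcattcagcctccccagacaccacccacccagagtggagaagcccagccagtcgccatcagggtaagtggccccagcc
Fhl2, chr9:52954491-52954790, minus strand: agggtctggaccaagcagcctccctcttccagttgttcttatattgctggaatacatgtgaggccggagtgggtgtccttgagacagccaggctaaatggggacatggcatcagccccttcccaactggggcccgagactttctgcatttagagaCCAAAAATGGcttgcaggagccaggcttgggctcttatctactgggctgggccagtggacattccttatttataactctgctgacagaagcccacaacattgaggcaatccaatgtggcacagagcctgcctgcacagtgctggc
Myo1e, chr8:79768578-79768877, plus strand: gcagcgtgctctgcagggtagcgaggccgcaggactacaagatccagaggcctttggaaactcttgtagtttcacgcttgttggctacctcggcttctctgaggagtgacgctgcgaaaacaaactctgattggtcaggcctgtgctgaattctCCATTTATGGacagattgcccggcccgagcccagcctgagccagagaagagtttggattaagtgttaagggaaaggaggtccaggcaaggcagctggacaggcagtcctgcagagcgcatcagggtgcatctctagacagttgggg
Dusp5, chr1:262543524-262543823, plus strand: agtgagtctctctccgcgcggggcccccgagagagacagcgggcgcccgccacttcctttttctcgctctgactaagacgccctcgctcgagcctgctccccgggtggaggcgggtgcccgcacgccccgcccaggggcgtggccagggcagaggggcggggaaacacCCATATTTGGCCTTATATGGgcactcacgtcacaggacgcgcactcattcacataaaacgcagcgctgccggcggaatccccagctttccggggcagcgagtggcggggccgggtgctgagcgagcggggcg
Egr2, chr20:21054392-21054691, minus strand: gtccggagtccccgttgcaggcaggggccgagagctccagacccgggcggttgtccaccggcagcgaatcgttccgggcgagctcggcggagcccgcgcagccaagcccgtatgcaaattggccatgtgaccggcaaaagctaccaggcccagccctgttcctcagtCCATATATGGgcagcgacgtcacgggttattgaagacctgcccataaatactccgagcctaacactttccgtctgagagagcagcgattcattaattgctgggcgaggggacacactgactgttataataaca
Fhl2 has 2 windows, and the one with the box is printed. The E-box CACGTG, which Myc binds, was in the window of 7.08% of all genes and 9.93% of the matched genes with a fold on these arrays, of 4 of the 46 higher genes (8.70%) and of 1 of the 39 lower ones (2.56%). The AP-1 motif TGANTCA was in 8.04% of all genes and 5.33% of those with a fold, in 2 of 46 (4.35%) and in 3 of 39 (7.69%). A match in letters is a description of the window and not a site.

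Actins and actin-binding proteins of contractile fibres had the highest median of all 44 lists, 1.16 over 32 probe sets, with 11 3-fold or more higher, none lower by as much, and 29 above 0. The highest fold among all genes was that of Tagln, transgelin or SM22, an actin-binding protein of smooth muscle, with 106 at 0 min and 49359 at 90 min (at least 47.1-fold). Its second probe set was 22.4-fold higher, from 1998 to 44854. Cnn1, calponin 1, which binds actin and restrains myosin, went from 580 to 15872 (at least 15.1-fold). Filamin C (Flnc), an actin crosslinker, was 6.63-fold and 9.92-fold higher by its probe sets, and smooth muscle actin (Acta2) was 4.49-fold higher, from 10907 to 48961, with 15.4-fold and 2.77-fold by its others. Fhl2, a LIM protein and partner of serum response factor, was 3.71-fold higher, and the myosin light chain Myl9 2.92-fold by the brightest probe set and 3.73-fold by the other. Tropomyosins, which lie along the actin filament, differed: Tpm1 was 2.35-fold higher by the brightest probe set and 3.14-fold and 3.09-fold by 2 others, Tpm4 was 2.13-fold higher, Tpm3 1.49-fold and Tpm2 1.25-fold. Cytoskeletal actins of non-muscle cells were almost level, with 66564 and 69817 for Actb and 50961 and 43623 for Actg1. Csrp1, a LIM protein of the cytoskeleton, was 2.91-fold higher. With 1 probe set for each gene the median of the list was 0.79.

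Tubulins and other microtubule proteins had a median of -0.27 over 10 probe sets, with none past 3-fold and Dync1i2 the lowest at 1.98-fold. The 58 probe sets of Ras superfamily GTPases of membrane traffic had a median of -0.18, with none past 3-fold.

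**Figure D4:**
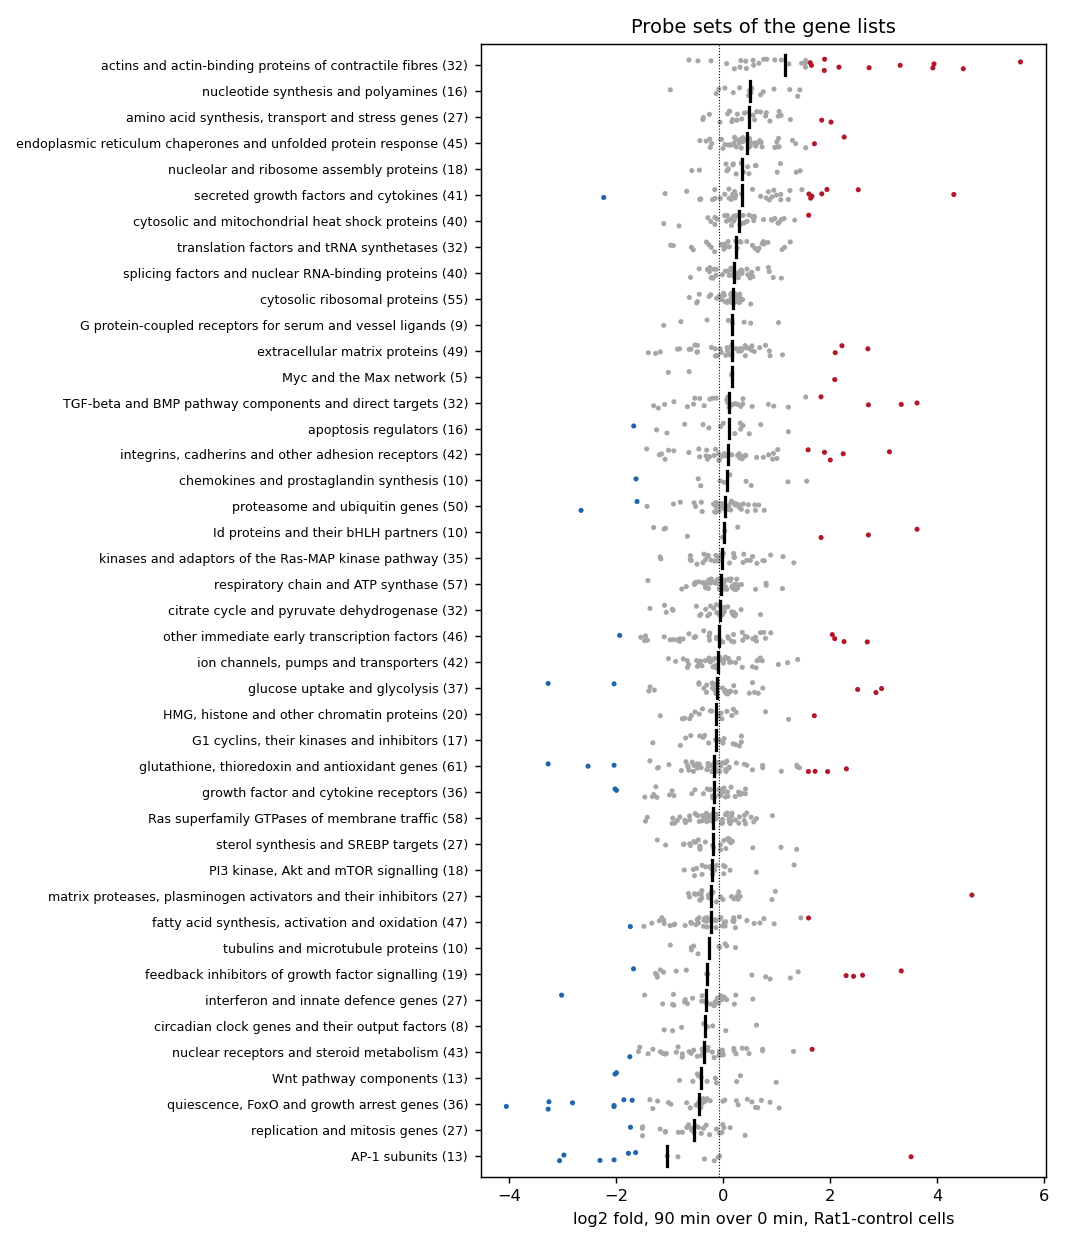
Log2 fold at 90 min over 0 min in Rat1-control cells of each probe set of the gene lists, ordered by median (black bars), with the number of probe sets in brackets. Red and blue points are 3-fold or more higher and lower, grey points lie between, and the dotted line is the median of all 3985 probe sets, -0.07. Contractile fibre genes have the highest median (1.16) and AP-1 subunits the lowest (-1.04), and most lists lie within 0.5 of the dotted line.

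Adhesion and matrix genes contained single genes with high folds in lists that otherwise moved little. Of 42 probe sets of adhesion receptors, 5 were 3-fold or more higher and none lower by as much, with a median of 0.10. The hyaluronan receptor Cd44 went from 2424 to 20915 (8.63-fold higher). Pvr, the poliovirus receptor and a cell contact protein, went from 1262 to 5985 (4.74-fold) and Emp1, an epithelial membrane protein, from 7707 to 30921 (4.01-fold). Syndecan 4 (Sdc4), a heparan sulfate coreceptor of focal adhesions, was 2.03-fold higher by the brightest probe set and 3.72-fold by the other, and the focal adhesion adaptor paxillin (Pxn) 1.90-fold and 3.01-fold. Lower were the gap junction protein Gja1, by 2.69-fold, and Cd47, Icam1 and Pmp22, by 1.89-fold to 2.28-fold. Among matrix proteins, tenascin C (Tnc), which is made in wounds, was under the floor at 0 min by all of its probe sets (143 to 885) and at least 4.28-fold to 6.53-fold higher at 90 min. It was the only matrix gene past 3-fold, and the median of the 49 probe sets was 0.16, which is 0.07 after quantile normalization. The fibrillar collagens, all among the brightest probe sets, were 1.06-fold to 1.45-fold higher for Col1a1, Col1a2 and Col3a1, close to the median of 0.25 for such bright probe sets. Lower by less than 3-fold were the crosslinking enzyme Loxl1 (2.63-fold and 2.39-fold) and versican (Vcan, 2.25-fold), and laminin gamma 1 (Lamc1) was 2.16-fold higher.

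The urokinase receptor Plaur, which localizes plasmin to the cell surface, had the second highest fold of the genes, from -663 to 26308, at least 25.1-fold. It was the only 1 of the 27 probe sets of matrix proteases, plasminogen activators and their inhibitors past 3-fold, and their median was -0.22. Tissue factor (F3), the starter of coagulation, was 1.97-fold higher, from 7540 to 14844, and Plat, the tissue plasminogen activator, 1.88-fold, from 3207 to 6043. Matrix metalloproteases changed little, with Mmp13 1.35-fold, Mmp14 1.09-fold and Mmp2 1.14-fold lower. The lysosomal proteases Ctsb, Ctsd and Ctsl were between 1.21-fold and 1.54-fold lower by all of their probe sets.

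Secreted growth factors and cytokines had a median of 0.35 over 41 probe sets, with 31 above 0, 7 3-fold or more higher and 1 3-fold or more lower. Hbegf, a ligand of the EGF receptor, went from 665 to 20822 (at least 19.9-fold higher). Vegfa, which drives vessel growth, went from 2909 to 10454 (3.59-fold), and its other probe sets past 3-fold were 5.76-fold and at least 3.04-fold higher. Neuregulin 1 (Nrg1), a ligand of ErbB receptors, was 3.84-fold higher, from 1361 to 5231, and Pdgfa 3.11-fold, from 1228 to 3821. Fgf7 followed at 2.78-fold, Inhba at 1.93-fold, and the matricellular proteins Ccn1 and Spp1 at 1.89-fold and 1.82-fold. The vasodilator adrenomedullin (Adm) was the exception, from 4913 to 303 (at least 4.69-fold lower). For 23 genes of the list no probe set was above the floor, among them Areg, Il6 and Tnf. Receptors for such factors were lower more often than higher, with 13 of 36 probe sets above 0 and a median of -0.17. Those past 3-fold were the Wnt receptors Fzd1, from 6908 to 1707 (4.05-fold lower), and Fzd2, from 11825 to 2977 (3.97-fold lower). Il6st, Igf2r and Erbb2 were 2.75-fold, 2.39-fold and 2.35-fold lower. Other Wnt pathway genes moved less, and the list had a median of -0.41 over 13 probe sets. The listed G protein-coupled receptors for serum and vessel ligands had a median of 0.17 over 9 probe sets with none past 3-fold, the thrombin receptor F2r being 2.05-fold higher. Outside that list, the adrenergic receptor Adra2a was at least 3.47-fold higher (673 to 3633), and the adhesion receptor Adgrl2 of this class 3.74-fold lower. Ptgs2, the inducible cyclooxygenase, went from 16717 to 38750 (2.32-fold) and was 2.95-fold higher by its other probe set, and the interferon-induced chemokine Cxcl10 was at least 3.08-fold lower (3230 to 843). The median of the 10 probe sets of chemokines and prostaglandin synthesis was 0.07.

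Feedback inhibitors of growth factor signalling fell into a higher and a lower group. Dusp5, a nuclear phosphatase of ERK, went from 3806 to 23205 (6.10-fold higher). Errfi1 (Mig-6), which blocks the EGF receptor kinase, went from 2345 to 12715 (5.42-fold), and Pmepa1, which restrains Smad signalling, from 3035 to 30514 (10.1-fold). The cytoplasmic ERK phosphatase Dusp6 was 1.74-fold and 2.65-fold higher. In contrast, Dusp1, a phosphatase of MAP kinases, was lower by all 3 probe sets (1.61-fold to 2.34-fold; 24248 and 15076 by the brightest), and so were the mRNA decay factors Zfp36 (2.25-fold and 2.36-fold) and Zfp36l1 (2.40-fold and 3.19-fold). Of 19 probe sets, 4 were 3-fold or more higher and 1 3-fold or more lower. The median was -0.29, and lay between -0.29 and 0.80 in the alternatives. Kinases and adaptors of the Ras-MAP kinase pathway themselves had a median of -0.02 (0.02 after median scaling) over 35 probe sets with none past 3-fold, Mapk6 being the highest at 2.18-fold and 2.50-fold. PI3 kinase, Akt and mTOR genes had a median of -0.21 over 18 probe sets, with Sgk1, a serum-induced kinase, 2.51-fold higher (5759 to 14464) and Akt1 level (12019 and 12345).

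Id3 and Id1, inhibitors of bHLH factors and direct targets of BMP and Smad signalling, were higher. Id3 went from 8230 to 54097 (6.57-fold) and by its second probe set from 2297 to 28332 (12.3-fold). Id1 was 3.56-fold higher by the brightest probe set (1790 to 6369), whereas the other was 1.59-fold lower. Of their bHLH partners, Tcf4 was 2.46-fold lower, Tcf3 2.10-fold lower by the brightest probe set and level by the other (1053 and 851), and Tcf12 level (2248 and 2300). The Id and bHLH list had a median of 0.01 over 10 probe sets. The wider list of TGF-beta and BMP genes had a median of 0.11 over 32 probe sets, with 4 3-fold or more higher, all of Id1, Id3 and Pmepa1. Ltbp1, which stores latent TGF-beta, was 2.92-fold higher, and the type I BMP receptor Bmpr1a at least 2.46-fold lower. Myc itself went from 1172 to 4980 (4.25-fold higher). Its second probe set lay at 222 and 1171, close to the floor. Mxi1, a Max partner that opposes Myc, was 2.03-fold lower, and the Max network list had a median of 0.16 over 5 probe sets.

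Genes of quiescence and growth arrest were mostly lower: of 36 probe sets 26 were below 0, 8 3-fold or more lower and none 3-fold or more higher, with a median of -0.45. Gadd45a, a stress and growth arrest protein, went from 25674 to 2696 (9.52-fold lower) and was 3.61-fold to 16.5-fold lower by its other probe sets. Txnip, an inhibitor of thioredoxin and of glucose uptake, went from 10086 to 694 (at least 9.62-fold) and by the second probe set from 4295 to 1035. The nuclear receptor coregulator Pnrc1 was 7.02-fold lower, from 7411 to 1056, and Bnip3l, a mitophagy receptor, 3.24-fold, from 14416 to 4446. Cyclin G1 (Ccng1) was 2.48-fold and catalase (Cat) at least 2.33-fold lower. The antiproliferative gene Btg1 was an exception at 1.84-fold higher, as was the stress factor Ddit3 at 2.07-fold. Outside this list, Hbp1, a repressor of cell cycle genes, was at least 5.36-fold lower (5615 to 817). Apoptosis regulators had a median of 0.11 over 16 probe sets, with Casp2 at least 3.18-fold lower (3331 to 792), Bad 2.36-fold lower and Bcl2l11 (Bim) 2.33-fold higher.

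Replication and mitosis genes were also lower at this early time, with 24 of 27 probe sets below 0 and a median of -0.54, although Top2a was the 1 gene past 3-fold, by 1 of 3 probe sets (at least 3.31-fold; 1.78-fold by the brightest). Cdk1, the mitotic kinase, went from 5472 to 1930 (2.84-fold lower), Mcm7 of the replicative helicase from 6164 to 2178 (2.83-fold), Cdc20 from 2981 to 872 (at least 2.84-fold) and Plk1 from 6294 to 2990 (2.10-fold). Pcna, the sliding clamp, was not lower (15794 and 21032). Outside the list, the mitotic spindle protein Dlgap5 was 3.35-fold lower. G1 cyclins and their kinases and inhibitors had a median of -0.14 over 17 probe sets with none past 3-fold. Cyclin D1 (Ccnd1) had 4542 and 5756 (1.27-fold higher), and its other probe sets above the floor lay between 1.20-fold lower and 1.24-fold higher. HMG, histone and other chromatin proteins had a median of -0.14 over 20 probe sets, with Hmga1 1.73-fold and 2.34-fold higher, Dnmt1 at least 2.25-fold lower and Anp32a 3.26-fold higher by 1 probe set and at least 1.18-fold lower by the other.

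Genes for the supply of nucleotides, polyamines, amino acids and ribosomes were higher as groups, although few reached 3-fold. In nucleotide and polyamine synthesis 13 of 16 probe sets were above 0 with a median of 0.51, and none passed 3-fold. Ornithine decarboxylase (Odc1), the rate-limiting enzyme of polyamine synthesis, went from 1775 to 4211 (2.37-fold), and Azin1, which protects it from degradation, from 2060 to 5424 (2.63-fold). Amd1, the next polyamine enzyme, was at least 2.70-fold higher. Among 27 probe sets of amino acid and stress genes 23 were above 0, with a median of 0.48. The cationic amino acid transporter Slc7a1 was at least 4.05-fold and 3.59-fold higher by the brightest probe sets (509 to 4243 and -50 to 3765) and 1.39-fold by another. The large neutral amino acid transporter Slc7a5 was 2.13-fold higher, its partner Slc3a2 1.51-fold, and Trib3, a stress-induced pseudokinase, 2.39-fold. Among nucleolar and ribosome assembly proteins 16 of 18 probe sets were above 0, with a median of 0.36. The RNA helicase Ddx21 went from 3169 to 8614 (2.72-fold), Nop58 of the box C/D particles from 3817 to 9863 (2.58-fold) and nucleolin (Ncl) from 13671 to 20763 (1.52-fold).

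Translation factors and tRNA synthetases had a median of 0.25 over 32 probe sets with none past 3-fold, which is 0.07 after quantile normalization. Eif2b3, a subunit of the exchange factor of eIF2, was 2.22-fold higher, the threonyl-tRNA synthetase Tars1 2.15-fold, and Eef2k, a kinase that slows elongation, 1.90-fold lower. Cytosolic ribosomal proteins had a median of 0.19 over 55 probe sets, 46 of them above 0 and none past 2-fold, but the median was -0.03 after quantile normalization, and these probe sets are among the brightest, for which the median of all was 0.25. Splicing factors and nuclear RNA-binding proteins had a median of 0.20 over 40 probe sets, with Hnrnpab (1.82-fold) among the highest. Outside the lists, Eif2ak2 (PKR), the kinase that stops translation on viral RNA, was 4.16-fold lower (4515 to 1085).

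Chaperones of the endoplasmic reticulum were higher, with 37 of 45 probe sets above 0 and a median of 0.45. Hspa5 (BiP), the main chaperone of this compartment, went from 19593 to 64018 (3.27-fold) and was 4.80-fold higher by a second probe set. Canx, a lectin chaperone, was 1.29-fold to 2.92-fold higher by its probe sets, the translocon subunit Sec61a1 2.56-fold, Dnajb9 2.46-fold and Hyou1 2.01-fold, whereas Vcp and Pdia6 were 1.02-fold and 1.16-fold lower by their brightest probe sets. Cytosolic and mitochondrial heat shock proteins had a median of 0.29 over 40 probe sets. Hspa9, a chaperone of mitochondria, was 1.96-fold and 3.03-fold higher and the heat shock factor Hsf1 2.53-fold. Proteasome and ubiquitin genes had a median of 0.04 over 50 probe sets. The ubiquitin-conjugating enzyme Ube2b was 3.04-fold lower, and Psma7 at least 6.29-fold lower by 1 probe set but level by the brighter (12258 and 11671). Antioxidant genes went both ways, with a median of -0.17 over 61 probe sets, 4 3-fold or more higher and 3 3-fold or more lower. The thioredoxin reductase Txnrd1 was 3.88-fold and 4.94-fold higher, Nqo1 3.02-fold and glutathione synthetase (Gss) at least 3.30-fold, while the glutathione transferase Gstt2 was 5.74-fold lower (9653 to 1682). Heme oxygenase (Hmox1) was 1.67-fold and 2.60-fold higher.

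In glucose uptake and glycolysis, 3 of 37 probe sets were 3-fold or more higher and 2, both of Txnip, 3-fold or more lower, with a median of -0.12. The glucose transporter Slc2a1 went from 2674 to 19376 (7.25-fold) and by its second probe set from 1185 to 9238 (7.80-fold). Hexokinase 2 (Hk2) was at least 5.72-fold higher by 1 probe set (409 to 5994) and 1.10-fold lower by the brighter. Pgk1 was 1.09-fold to 1.12-fold lower. Citrate cycle genes had a median of -0.06 over 32 probe sets and the respiratory chain -0.03 over 57, both of them above 0 after median scaling, and none passed 3-fold. Idh1 was 2.57-fold and Idh2 2.13-fold lower, and Cyc1 2.16-fold higher. In fatty acid metabolism the median was -0.23 over 47 probe sets. Acsl4, which activates arachidonate, was 3.03-fold higher (3431 to 10389), and Cpt1a, the gate of mitochondrial fatty acid oxidation, 3.32-fold lower (6144 to 1850). The desaturase Scd2 was lower by all 5 probe sets with a fold, 2.79-fold by the brightest. Sterol synthesis had a median of -0.19 over 27 probe sets with none past 3-fold, Msmo1 at 2.12-fold and 2.60-fold higher and Dhcr7 at 2.34-fold lower. Nuclear receptors and steroid genes had a median of -0.35 over 43 probe sets. The oxysterol receptor Nr1h2 was 3.34-fold lower, and its relatives Nr2f1 and Nr2f2 2.99-fold and 2.94-fold. Esr1 was at least 3.17-fold higher in the library titled Rat1-control at 90 min, whose value is the one that goes against its title. Ion channels, pumps and transporters had a median of -0.09 over 42 probe sets (0.05 after median scaling), with Slc20a2, a phosphate transporter, at 2.63-fold higher.

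Interferon and innate defence genes were lower, with 22 of 27 probe sets below 0 and a median of -0.31. Irf1, the transcription factor of this group, went from 9063 to 1121 (8.08-fold lower). Tap1, the peptide transporter of antigen presentation, was 2.76-fold lower and Stat5a at least 2.18-fold. Circadian clock genes had a median of -0.33 over 8 probe sets with none past 3-fold. The clock repressors Nr1d2 and Nr1d1 were at least 2.14-fold and 1.92-fold lower.

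Of the 106 genes past 3-fold, 45 were in none of the lists. Higher among these were Il1rl1, the receptor of interleukin 33, from 220 to 7085 (at least 6.76-fold), the secreted protein Metrnl, from 4127 to 24385 (5.91-fold), Pdlim5, a PDZ and LIM protein of actin fibres, from 4213 to 22211 (5.27-fold, at least 9.82-fold by its other probe set), and C9h6orf141, from 754 to 7342. Jph2, Slc4a7, a bicarbonate transporter, and Myo1e, a motor that links membranes to actin, were 4.68-fold, 3.91-fold and 3.12-fold higher. Lower among these were Tns2, a tensin of focal adhesions, from 9081 to 888 (at least 8.66-fold), the alcohol dehydrogenase Adh1c, from 7462 to 277 (at least 7.12-fold), Tcp11l2, from 5809 to 670 (at least 5.54-fold), Ces1dl1, from 5586 to -1873 (at least 5.33-fold), the kinase scaffold Akap12, from 5484 to 1046 (at least 5.23-fold), and Fam111a, from 4848 to 1012 (at least 4.63-fold). Supervillin (Svil), which binds actin and myosin, was 3.53-fold and at least 5.61-fold lower. The transcription factor Nfib was 3.17-fold and 3.32-fold lower, and its relative Nfix at least 3.21-fold. Dab2, an endocytic adaptor, went from 34706 to 11047 (3.14-fold), Tnrc6b was 3.86-fold lower, and Hist4h4 at least 4.00-fold. Of the 149 probe sets past 3-fold, 7 higher and 7 lower ones had no gene symbol or several. A probe set among these, without a symbol, went from 3078 to 60608 (19.7-fold), second to 1 of Tagln among those that passed the floor at both times.

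Rat1-Omomer cells gave a second reading of the serum response, on arrays that share none with Rat1-control cells, but with 4-OHT-activated Omomer present. With 1 array for each condition the difference between the lines could not be tested. In Rat1-Omomer cells, 122 of 4209 probe sets with a fold (2.90%) were 3-fold or more higher and 406 (9.65%) 3-fold or more lower at 90 min. Of the 77 probe sets higher in Rat1-control cells, 72 had a fold in Rat1-Omomer cells, 60 of them above 0 and 30 past 3-fold, with a median log2 fold of 1.40. Of the 72 lower ones all had a fold, 54 of them below 0 and 20 3-fold or more lower, with a median of -0.95. A set of 1744 probe sets, named here the 5 EST series since their IDs begin with 1 of 5 EST prefixes, read low on the Rat1-Omomer array at 90 min, with a median of -0.82 against 0.23 for all others. In Rat1-control cells these medians were -0.17 and -0.04. Without this set, 57 of 62 higher ones had the same direction and 28 were 3-fold or more higher, and 37 of 53 lower ones had it, with 8 3-fold or more lower. The shares of 2.90% and 9.65% include this set, and those without it are not given here. Nor are the shares of all probe sets above and below 0 in Rat1-Omomer cells, so the counts of direction are without a background.

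Side by side, some genes with high folds in Rat1-control cells had high folds in Rat1-Omomer cells too. There Cnn1 went from 848 to 19255 (at least 18.4-fold), Hbegf from 605 to 24371 (at least 23.3-fold), Acta2 from 13277 to 52993 (3.99-fold), Id3 from 3306 to 59972 (18.1-fold) and Pmepa1 from 1895 to 23202 (12.2-fold). Of the listed secreted growth factors and cytokines past 3-fold in Rat1-control cells, Hbegf was the 1 past 3-fold here. Nrg1 went from 1168 to 1734 by the brightest probe set, and Pdgfa from 242 to 1782 (at least 1.70-fold). For other genes the value at 90 min was lower than in Rat1-control cells. Plaur reached 2431 in Rat1-Omomer cells and 26308 in the library titled Rat1-control, and Fosl1 1423 and 11973. Tagln had 9682 and 49359, and 2350 and 44854 by its second probe set. In Rat1-Omomer cells the probe sets of Tagln differed, from 1396 to 9682 (6.94-fold higher) and from 2744 to 2350 (1.17-fold lower). The Vegfa probe sets outside the 5 EST series that were past 3-fold in Rat1-control cells had 866 and 6333, and 1146 and 3188. Immediate early genes that were level or lower in Rat1-control cells went both ways in Rat1-Omomer cells. Higher at 90 min, from lower values at 0 min, were several of them: Nr4a1 went from 6195 to 85746 (13.8-fold higher), Arc, an early gene of the cytoskeleton, from 6434 to 51956 (8.08-fold) against 16228 and 13538 in Rat1-control cells, and Dusp1 from 11363 to 46767 (4.12-fold). Egr1 went from 63281 to 146952 (2.32-fold). The manufacturer's control probe sets of actin and GAPDH were all higher at 90 min in Rat1-Omomer cells too. By the 3' probe sets, actin went from 45032 to 87213 and GAPDH from 48199 to 73855. What this means for the folds of the early genes was not tested. Fos went from 5715 to 12510 by the brightest probe set, where Rat1-control cells had 17317 and 5588. Both other probe sets of Fos were near level in Rat1-Omomer cells, with 3198 and 3366 and with 1109 and 1263. Jun, in contrast, was lower in Rat1-Omomer cells too, from 16922 to 8098 (2.09-fold), and so was Ier3, from 9084 to 6001 (1.51-fold). Junb went from 11176 to 2583 by a probe set of the 5 EST series and from 9002 to 17216 by the other. As lists, immediate early transcription factors had a median of -0.08 without and 0.67 with Omomer, feedback inhibitors -0.29 and 0.90, and quiescence and growth arrest genes -0.45 and 0.01, while contractile fibre genes were at 1.16 and 0.79 and replication and mitosis genes at -0.54 and -0.31.

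**Figure D5:**
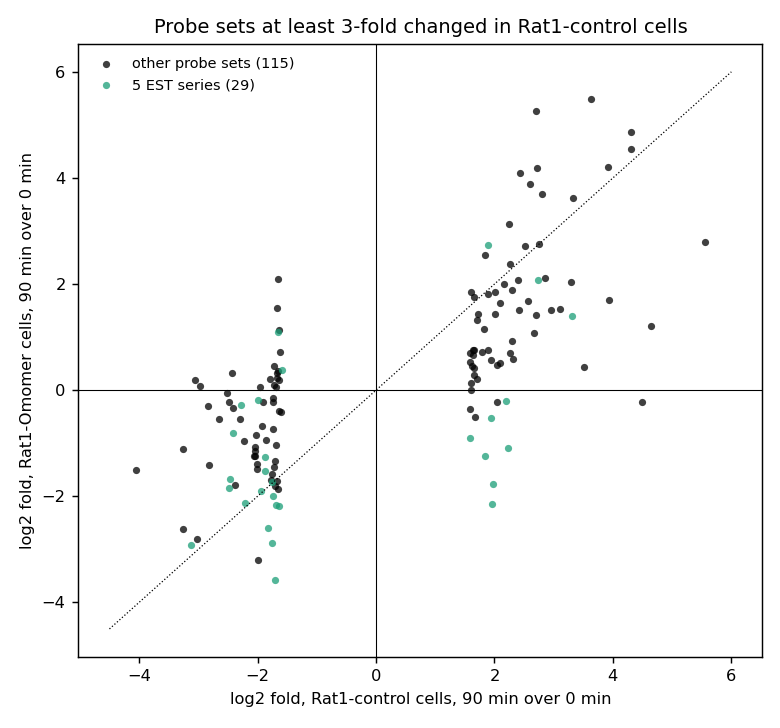
Log2 fold at 90 min over 0 min in Rat1-Omomer cells (y axis) against Rat1-control cells (x axis) for the 144 probe sets 3-fold or more changed in Rat1-control cells that have a fold in both, with the 5 EST series in green and all others in black; the dotted line marks equal folds. The gap around 0 on the x axis is the 3-fold selection. Of the higher probe sets 60 of 72 lie above 0 in Rat1-Omomer cells, and of the lower ones 54 of 72 below 0. The shares of all probe sets above and below 0 there are not given.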

How the data were processed

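RNA of Rat1-control and Rat1-Omomer cells at 0 and 90 min of serum was hybridised to Affymetrix rat genome arrays, 1 for each condition. Probe intensities were turned into average differences with Microarray Analysis Suite 4.0 by the authors, who deposited these intensity values on a linear scale; the number of arrays limits the precision. Values under a floor of 1048 (2 times the noise SD estimated from values below 0 on the 4 arrays) were set to the floor, and the log2 ratio of 90 min over 0 min was taken. The 3-fold threshold is that of the study's methods. Of 8740 probe sets, 7006 had 1 gene symbol in GEO's platform annotation, 308 several and 1426 none. Genes were given by the brightest probe set over the 4 arrays. Those named are, per list, all past 3-fold and up to 4 others with the largest change, the 20 highest and 20 lowest genes, and genes the study names; others (such as Pgk1, Akt1, Ccnd1, cathepsins, further collagens, tropomyosins and genes near the threshold) were picked after their values were seen. The members and lists were chosen with earlier results of these data known. Promoters were matched by symbol, 2065 of 2471 genes. Of the 44 lists, 1 is not reported here. Floors, scalings and filters were varied, and the fold script was tested on simulated data. Python 3.11.15, numpy 2.4.6, pandas 2.3.3 and matplotlib 3.10.9 were used.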

Additional observations from a re-analysis of the deposited data

Results flagged for a closer look

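Probe sets of 6 genes were at least 3-fold changed in Rat1-control cells and at least 2-fold changed the opposite way in Rat1-Omomer cells, with 1 array for each condition, so that the difference was not tested. Fos had a log2 fold of -1.63 in Rat1-control cells and 1.13 in Rat1-Omomer cells, and Zfp36l1 -1.67 and 1.56. Both other probe sets of Fos were lower in Rat1-control cells (-2.97 and -3.05) but near level in Rat1-Omomer cells (0.07 and 0.19). Jph2 had 2.23 and -1.09, Slc4a7 1.97 and -1.77, Txnrd1 1.96 and -2.14, and Vegfa 1.85 and -1.24. These last 4 probe sets all belong to the 5 EST series, which read low on the Rat1-Omomer array at 90 min (median log2 fold -0.82, against 0.23 for all other probe sets), and the part of this in their values was not tested.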

How the results depend on the processing

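No paired analysis was possible because each condition had 1 array. The count of 77 higher probe sets was 49 with a floor at 4 times the noise SD, 48 with a value over the floor required at both times, and 47 with 1 probe set for each gene. The count of 72 lower ones was 156 with a floor at 1 times the noise SD, 32 at 4 times, 42 with that requirement, 42 with 1 probe set for each gene, and 40 without expressed sequence tags. Under each array's own floor, median scaling, quantile normalization and the difference form of the fold, and without the 5 EST series (chosen after seeing the data), both counts stayed within 1.5 times. Of 136 called probe sets compared across settings, 63 were under 3-fold with a floor at 4 times the noise SD. After median scaling this held for 12, and after quantile normalization for 10. In the floors, scalings and difference form 0 changed sign. List medians moved by more than the within-gene SD of 0.32 for AP-1 subunits, feedback inhibitors, the Id list, the Max network, contractile fibre genes and striated muscle markers in at least 1 alternative. Genes under the floor, 4755 probe sets, cannot be ranked.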
